A study of Mus musculus with 14 samples.

Results

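Expression of 10 genes of dietary lipid, sterol and retinoid uptake, *Apoa1*, *Apoa4*, *Apob*, *Apoc3*, *Mttp*, *Fabp1*, *Fabp2*, *Rbp2*, *Dgat1* and *Npc1l1*, was followed across intestinal tissue, adenoma and a colon carcinoma cell line. The genes were chosen by name: every non-control probe whose gene name in the scanner files was that of a member was taken, which gave 12 of the 55681 probes of the array, for 10 of its 36282 names. *Apob* and *Apoc3* each had 1 further probe. For each gene the brightest probe by mean signal was used, and all 10 genes were well above background in small intestine, adjacent tissue and adenoma. By the array annotation, in build mm9, the probes lie on chromosome 9 for *Apoa1* (chr9:46037921-46037980), *Apoc3* (chr9:46041134-46041193), *Apoa4* (chr9:46049661-46050404) and *Rbp2* (chr9:98410012-98410071). Those of *Mttp* and *Fabp2* lie on chromosome 3 (chr3:137753868-137753927 and chr3:122602276-122602335), and those of *Apob*, *Fabp1*, *Dgat1* and *Npc1l1* on chromosomes 12, 6, 15 and 11 (chr12:8012697-8012756, chr6:71154906-71154965, chr15:76333128-76333274 and chr11:6111461-6111520).

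RNA of 14 samples was hybridized to 1 one-color Agilent mouse array each. The groups were small intestine of C57BL/6J mice (3 arrays), tissue adjacent to adenomas of Apc Min/+ mice (2 arrays), macroscopic adenomas of Apc Min/+ mice (3 arrays), colon of C57BL/6J mice (3 arrays) and CT26 (3 arrays), a mouse colorectal carcinoma line from the American Type Culture Collection. Apc Min/+ mice carry 1 truncated copy of *Apc*, a brake on Wnt signalling, and form adenomas mostly in the small intestine. All animals were on a C57BL/6J background and CT26 is 1 line, which comes from another strain, BALB/c, so line, strain and culture cannot be told apart in its comparison with colon. The labels call the tissues whole tissue, whereas the study's text speaks of mucosa for small intestine and colon, and the labels name no segment of the small intestine and no age or sex. The study's sample list places all adenoma and adjacent pieces in 1 Apc Min/+ mouse, so the spread within these groups is that between pieces of 1 animal. P-values between adenoma and adjacent tissue measure that spread. Those against small intestine pool it with the spread among small intestine arrays. They set 1 Apc Min/+ animal against C57BL/6J mice, so animal, genotype and tissue cannot be told apart there. The same list puts 1 colon sample under an Apc Min/+ mouse, whereas the labels give C57BL/6J for all colon arrays.

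Enterocytes take up the fatty acids, monoglycerides, cholesterol and retinol that digestion releases, rebuild them into triglycerides and esters, and secrete them on chylomicrons. Apolipoprotein B is the backbone of these particles and microsomal triglyceride transfer protein loads it with lipid, while smaller apolipoproteins coat the surface and fatty acid and retinol binding proteins carry the cargo through the cytosol. In the mouse the pathway works mainly in the upper and middle small intestine and not in the colon.

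Values are log2 of the background-subtracted signal minus the 75th percentile of the same array, so 0 is the level of that percentile. They compare a gene between samples and not 1 gene with another. A gene counted as overexpressed or underexpressed when its log2 difference reached 1.2 in either direction with an adjusted p of 0.01 or less. The test was limma, fitted to the arrays of the compared groups and adjusted by the Benjamini-Hochberg method, and it covered the probes that at least 1 of the groups measured well above background throughout. The share of probes well above background ran from 46.8% to 58.2% over the arrays, and no member probe was saturated. The array labelled colon replicate 3 stood apart from its group. Its correlation with the small intestine arrays was 0.9506 to 0.9687, and with colon replicates 1 and 2 it was 0.9383 and 0.9344. Only probes that passed the background limit in the whole set of arrays entered these correlations. Genes silent in 1 of the tissues were thus left out. On colon replicate 3 *Car1*, which marks colonocytes, was at -3.09, against 7.17 and 7.75 on colon replicates 1 and 2. *B3galt5*, another gene of the colonocyte list, was at 4.62 on it, 5.0 and 5.49 on colon replicates 1 and 2, and -3.13 to -2.40 in small intestine. Results that rest on this array are given with and without it.

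The promoters of *Fabp1*, *Rbp2*, *Npc1l1* and *Fabp2* are shown because they held a match to a searched motif within the 150 bases printed. Each run is the 150 bases before the start of the gene in RefSeq annotation of GRCm38.p6, at chr6:71199729-71199878 (plus strand), chr9:98490387-98490536 (plus), chr11:6230246-6230395 (minus) and chr3:122894922-122895071 (plus). Capitals mark matches, on either strand, to the motifs searched.
Fabp1: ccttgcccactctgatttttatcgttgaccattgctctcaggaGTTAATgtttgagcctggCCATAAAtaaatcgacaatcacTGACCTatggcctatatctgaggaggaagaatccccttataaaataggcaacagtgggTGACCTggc
Rbp2: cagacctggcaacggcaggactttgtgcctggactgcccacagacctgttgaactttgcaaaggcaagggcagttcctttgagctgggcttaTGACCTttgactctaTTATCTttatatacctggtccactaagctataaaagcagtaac
Npc1l1: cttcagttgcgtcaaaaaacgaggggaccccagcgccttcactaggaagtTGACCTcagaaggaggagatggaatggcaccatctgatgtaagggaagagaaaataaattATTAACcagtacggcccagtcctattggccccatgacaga
Fabp2: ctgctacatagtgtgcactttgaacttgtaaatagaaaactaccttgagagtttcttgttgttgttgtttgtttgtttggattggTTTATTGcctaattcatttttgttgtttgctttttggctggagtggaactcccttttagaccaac

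Of the 10 members, 8 had an entry in the promoter table, which covers 250 bases before to 50 after the start. Motifs were searched on both strands, and none of them is contained in another. AGGTCA, a nuclear receptor half-site, stood in 3 of the 8 promoters, those of *Fabp1*, *Rbp2* and *Npc1l1*, and in 16.3% of all 32817 promoters in the table. In capitals above it appears as its reverse complement TGACCT, 2 times for *Fabp1* and 1 time each for *Rbp2* and *Npc1l1*. GTTAAT, an HNF1 half-site, stood in 2 of the 8, those of *Fabp1* and *Npc1l1*, and in 7.1% of all. AGATAA, 1 form bound by GATA factors, stood in the *Rbp2* promoter and in 11.2% of all. TTTATGG, a CDX motif, stood in that of *Fabp1* and in 2.8% of all. The other CDX form, TTTATTG, stood in that of *Fabp2* and in 4.6% of all. The other GATA form, TGATAA, was found in the promoters of *Apoa1* and *Npc1l1*, after the start in both, and in 9.1% of all. The HNF4 motif CAAAGTCCA was in 0 of the 8 and in 0.5% of all. A match is a run of letters and not a measured site.

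The first question was what level these genes had in adenoma and in its adjacent tissue, against small intestine. For the coat proteins of chylomicrons and high density lipoprotein, *Apoa1*, the main protein of high density lipoprotein, measured 8.11, 8.98 and 9.11 on small intestine replicates 1 to 3, 7.41 and 7.01 in adjacent tissue, and 5.15, 6.12 and 5.52 in adenomas. The groups did not overlap and stood in that order. *Apoc3*, which slows the clearance of triglyceride-rich particles, measured 6.07, 9.32 and 9.54 in small intestine, 6.56 and 7.33 in adjacent tissue, and 3.80, 4.61 and 4.38 in adenomas. All adenoma arrays were below every array of both other groups, and small intestine replicate 1 was the lowest of its group, below adjacent tissue. *Apoa4*, secreted on chylomicrons during fat absorption, measured 5.02, 8.74 and 9.42 in small intestine, 5.65 and 7.12 in adjacent tissue, and 5.42, 6.35 and 5.50 in adenomas. These groups overlapped, since small intestine replicate 1 was below every adenoma array.

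For particle assembly, *Apob*, the structural protein of chylomicrons, measured 7.26, 7.76 and 7.79 in small intestine, 6.63 and 6.81 in adjacent tissue, and 5.15, 5.88 and 5.70 in adenomas. *Mttp*, the transfer protein that lipidates apolipoprotein B, measured 5.90, 6.67 and 7.05, then 5.61 and 5.68, then 4.02, 4.55 and 4.37 in the same groups. *Dgat1*, which adds the last acyl chain of a triglyceride, measured 6.21, 6.69 and 7.04, then 5.81 and 5.42, then 3.56, 4.25 and 4.07. In all of these genes the groups were apart, with small intestine highest and adenoma lowest. *Npc1l1*, the cholesterol importer of the brush border, had the same order with a wider gap: 5.90, 6.64 and 6.88 in small intestine, 5.03 and 4.37 in adjacent tissue, and 1.64, 1.98 and 2.22 in adenomas.

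Among the carriers, *Fabp2*, the intestinal fatty acid binding protein, measured 9.70, 10.17 and 10.24 in small intestine, 9.92 and 9.41 in adjacent tissue, and 7.13, 7.97 and 7.77 in adenomas. Small intestine and adjacent tissue overlapped, and all adenoma arrays were below both. *Fabp1*, the fatty acid binding protein shared with liver, measured 5.44, 9.24 and 9.57 in small intestine, 8.16 and 9.14 in adjacent tissue, and 7.30, 8.06 and 8.10 in adenomas. *Rbp2*, the cellular retinol binding protein of absorptive cells, measured 2.45, 4.81 and 5.53, then 3.34 and 4.77, then 3.37, 4.33 and 3.82. In both genes small intestine replicate 1 was the lowest array of the 3 groups, and the spread among small intestine arrays, an SD of 2.29 for *Fabp1* and 1.61 for *Rbp2* (n = 3), was larger than any difference between the group means.

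**Figure D1:**
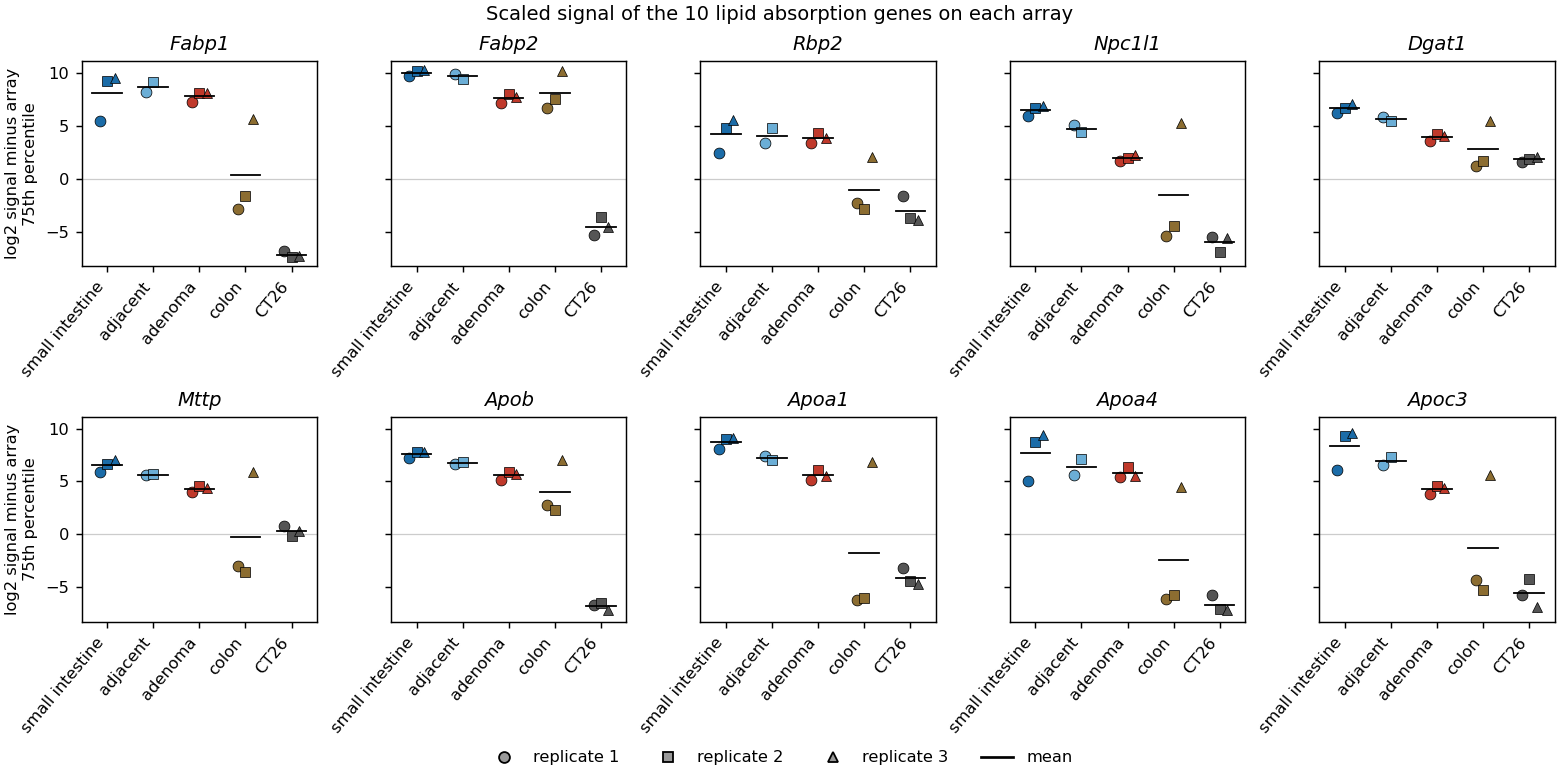
Level of each of the 10 genes on every array (log2 signal minus the 75th percentile of the array, vertical axis) in small intestine, adjacent tissue, adenoma, colon and CT26; symbols are arrays by replicate number and lines are group means. Adenoma points sit below all small intestine points in 7 of the 10 panels, and colon replicate 3 lies far above the other colon arrays in all 10.

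Adenomas underexpressed 7 of the 10 genes against small intestine and overexpressed 0. Over all 29539 probes tested, 10.9% were lower in adenomas and 10.9% higher. *Npc1l1* was 23.0-fold lower (log2 -4.53, SE 0.29, limma adjusted p = 0.000106, n = 3 and 3), and *Apoc3* 16.5-fold lower (-4.05, SE 0.88, limma adjusted p = 0.00839). *Apoa1* was 8.78-fold lower (-3.13, SE 0.35, limma adjusted p = 0.000608) and *Dgat1* 6.44-fold lower (-2.69, SE 0.28, limma adjusted p = 0.000462). *Fabp2*, *Mttp* and *Apob* were lower by 5.32-fold, 4.69-fold and 4.08-fold, with limma adjusted p of 0.000625, 0.00155 and 0.000944. *Apoa4*, *Rbp2* and *Fabp1* did not pass, at log2 differences of -1.97 (SE 1.06, limma adjusted p = 0.156), -0.42 (SE 0.75, 0.652) and -0.26 (SE 1.03, 0.843). The median over the 10 members was -2.32, and over all probes tested -0.15. In tissue samples, fewer enterocytes and less of a transcript per enterocyte cannot be told apart.

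The further *Apob* probe was also lower, at -2.34 (SE 0.38, limma adjusted p = 0.00278), while the further *Apoc3* probe missed the threshold at -2.37 (SE 0.62, limma adjusted p = 0.0174). The *Apoc3* call was the least stable of the 7 and was lost in 10 of 15 other settings, among them the omission of small intestine replicate 2 or 3 or of any adenoma replicate (limma adjusted p from 0.0251 to 0.033). A fit of all 5 groups together, which takes in the wide spread of the colon arrays, called 0 members. Within slide 1 the difference was below 0 for 9 of the 10 members (2 arrays a group, median -2.40, with *Fabp1* at 0.20) and within slide 2 for 10 of 10 (1 array a group, median -2.29).

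Most markers of enterocytes moved with these genes. The summed level of 8 enterocyte genes, as a multiple of the 75th percentile of the array, was 1000 to 2030 in small intestine, 951 to 973 in adjacent tissue and 151 to 231 in adenomas, and each of the 8 was measured well above background throughout these groups. For 7 of the 8 all adenoma arrays were below all small intestine arrays, and the exception was *Alpi*, intestinal alkaline phosphatase, at 5.66, 5.98 and 6.95 in small intestine, 4.46 and 4.74 in adjacent tissue and 6.03, 6.08 and 4.62 in adenomas. The sum of 8 general epithelial genes was 1920 to 2320, 1150 to 1510 and 1480 to 1780, and that of 10 proliferation genes 48.8 to 91.1, 93.7 to 106 and 163 to 180. For 4 neutrophil genes the sums were 0.122 to 0.173, 0.458 to 0.714 and 4.49 to 5.37. Of these 4, 1, 2 and 3 were well above background on all arrays of those groups. Since liver also makes several of the members, 6 hepatocyte genes were read as well: they summed to 5.50 to 24.6, 2.53 to 5.16 and 2.45 to 5.82, with 3, 3 and 5 of the 6 well above background on all arrays of those groups. *Serpina1a*, a protease inhibitor of plasma, had means of 3.24, 1.70 and -0.17 in these groups, whereas *Alb*, which encodes albumin, had means of -4.34 in small intestine and 0.72 in adenomas. *Ahsg*, another liver plasma protein, had means of -6.45 and -2.27. The 8 colonocyte genes summed to 7.01 to 9.24, 9.0 to 18.4 and 3.89 to 5.11, in which *Slc26a3*, the chloride exchanger, had means of 2.74 in small intestine and 0.42 in adenomas, while *Aqp8*, a water channel, and *B3galt5* had means of -2.83 and -2.78 in small intestine and 0.92 and -0.51 in adenomas. The 6 smooth muscle genes summed to 133 to 501, 139 to 571 and 90.2 to 111. The part of these cell types in the difference was not tested.

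Against adjacent tissue, 2 of the 10 members were underexpressed in adenomas and 0 overexpressed, beside 1.71% of 29733 probes lower and 2.27% higher. *Npc1l1* was 6.73-fold lower (log2 -2.75, SE 0.27, limma adjusted p = 0.00533, n = 3 and 2) and *Apoc3* 6.42-fold lower (-2.68, SE 0.33, limma adjusted p = 0.00798). Of the others, *Fabp2* at -2.04 (SE 0.31, limma adjusted p = 0.0122), *Mttp* at -1.33 (SE 0.20, 0.0125) and *Dgat1* at -1.65 (SE 0.26, 0.0137) missed the limit on adjusted p narrowly. *Apoa1* stood at -1.61 (limma adjusted p = 0.0236) and *Apob* at -1.14 (0.0315). *Fabp1*, *Apoa4* and *Rbp2* had differences of -0.83, -0.63 and -0.22, with limma adjusted p of 0.173, 0.399 and 0.764. All 10 differences were below 0, with a median of -1.47 against -0.05 over all probes. The groups did not overlap for 8 members, all but *Apoa4* and *Rbp2*. How many of all probes had groups apart was not counted, here or in the other comparisons. By limma, 11324 of the 29733 probes had an unadjusted p under 0.05.

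The share of all probes called is not given for the other settings of this comparison. The count of members called in it moved with the setting. It was 6 at an adjusted p of 0.05, 0 with slide as a block and 0 without any 1 of adenoma replicates 1 to 3 or adjacent replicate 1, and 1, *Npc1l1*, without adjacent replicate 2.

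Adjacent tissue was compared with small intestine to see whether the genes differed outside the adenoma. No member passed: limma called 0 of 10, and of 28832 probes it called 0% lower, while 8750 had an unadjusted p under 0.05. The differences were -1.77 for *Npc1l1* (SE 0.37, limma adjusted p = 0.0617), -1.52 for *Apoa1* (SE 0.36, 0.0719), -1.03 for *Dgat1* (SE 0.31, 0.0992) and -0.89 for *Apob* (SE 0.25, 0.0916), and 0.56 for *Fabp1* (SE 1.26, 0.775). The difference was below 0 for 9 of 10 members, with a median of -0.97 against -0.09 over all probes. For 5 members, *Apoa1*, *Apob*, *Mttp*, *Dgat1* and *Npc1l1*, both adjacent arrays were below all 3 small intestine arrays. The mean of adjacent tissue lay between those of adenoma and small intestine for 9 of the 10, all but *Fabp1*. How many of all probes had groups apart, or a mean of adjacent tissue in between, was not counted. These comparisons share arrays, so the values are set side by side and no test was made of the order.

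**Figure D2:**
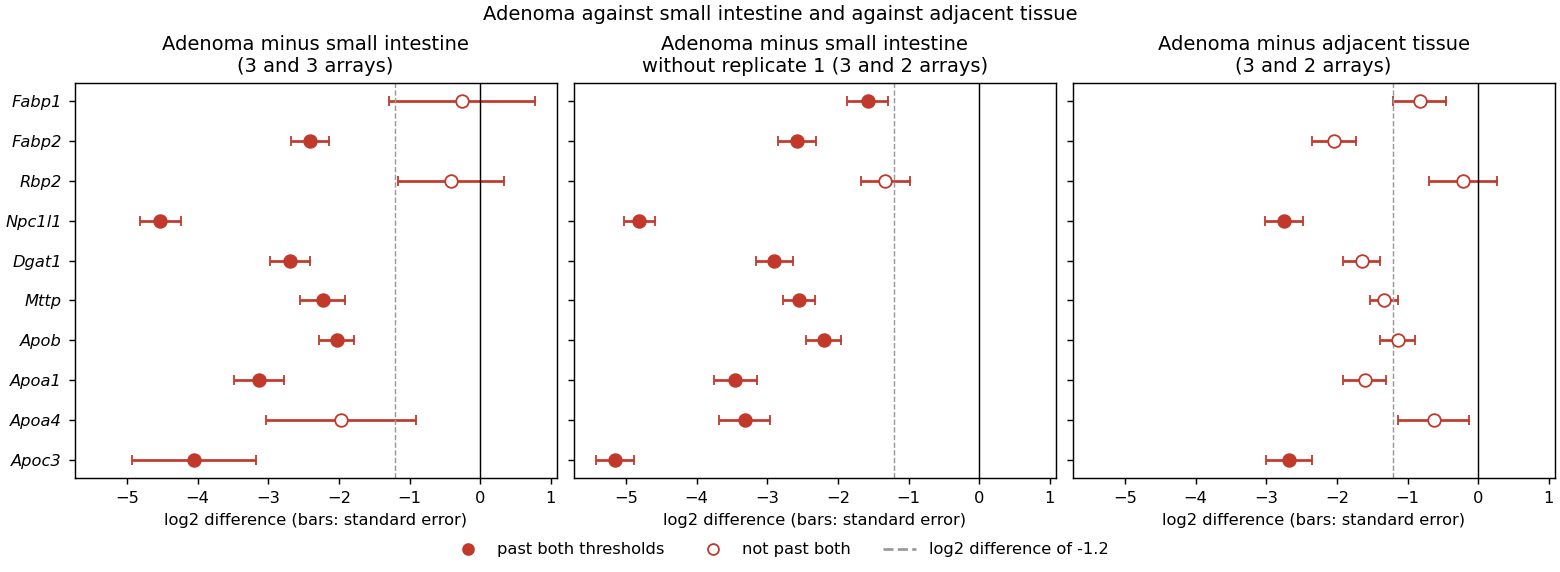
Log2 differences of the 10 genes (horizontal axis, with standard errors from limma) for adenoma minus small intestine, the same without small intestine replicate 1, and adenoma minus adjacent tissue. Filled points passed both thresholds: 7, 9 and 2 of the 10 in these panels, and all points lie below 0. Small intestine replicate 1 was below the mean of replicates 2 and 3 in all 10 genes, so its omission was bound to move the points downward.

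The 3 genes that did not pass against small intestine, and *Apoc3*, were those in which small intestine replicate 1 departed most from replicates 2 and 3. In *Apoa4*, *Fabp1*, *Apoc3* and *Rbp2* replicate 1 was different from the mean of the other two by -4.05, -3.96, -3.36 and -2.73 on the log2 scale. For the other 6 members the difference was -0.96 to -0.50. These 4 genes were singled out after their values had been seen, so the split is a description. In adjacent tissue replicate 1 was also below replicate 2 in the same 4 genes, with differences of -1.47 for *Apoa4*, -1.43 for *Rbp2*, -0.98 for *Fabp1* and -0.77 for *Apoc3*, whereas the other 6 differed by -0.18 to 0.66.

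Markers of intestinal segment differed between the same arrays. *Fabp6*, the bile acid binding protein of the ileum, was at 9.95 on small intestine replicate 1, where its spot was saturated, 1.60 and -1.74 on replicates 2 and 3, 8.12 and -0.83 on adjacent replicates 1 and 2, and -1.76, -1.42 and -1.78 in adenomas. *Slc10a2*, the ileal bile acid transporter, was at 5.56, -1.94 and -2.11 in small intestine, 0.55 and -1.55 in adjacent tissue and -1.40, -1.17 and -0.68 in adenomas. *Slc46a1*, the folate transporter of the proximal intestine, ran the other way, at 3.21, 6.26 and 6.80 in small intestine and 3.48 and 5.82 in adjacent tissue, with adenomas at 4.62, 5.44 and 3.99. Of the other proximal genes, *Gata4*, a transcription factor of the upper intestine, and *Cybrd1*, a duodenal ferric reductase, differed by -1.95 and -0.61 between small intestine replicate 1 and the mean of replicates 2 and 3, and by -0.64 and -0.97 between adjacent replicates 1 and 2. *Slc40a1*, the iron exporter, differed by 1.56 and -1.08 in the same way. In adenomas *Cybrd1* was at 4.01, 3.69 and 0.30, against -1.43, -0.85 and -0.79 in small intestine. *Slc40a1* was at 3.56, 3.18 and 0.94 in adenomas, against 0.84, -0.34 and -1.08 in small intestine. *Gata4* had means of 2.27 in adenomas and 2.36 in small intestine. The sum of 4 distal markers was 222 to 1640 in small intestine, 76.1 to 477 in adjacent tissue and 18.0 to 28.4 in adenomas, and that of 4 proximal markers was 13.5 to 123, 16.6 to 65.4 and 23.6 to 70.0, all 4 of each list being well above background on every array. The part of the segment in the spread of the members was not tested.

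Without small intestine replicate 1, limma called 9 of the 10 members lower in adenomas, beside 13.7% of probes. *Apoa4* was then 9.98-fold lower (log2 -3.32, SE 0.36, limma adjusted p = 0.00075, n = 3 and 2), *Fabp1* 2.99-fold lower (-1.58, SE 0.29, limma adjusted p = 0.00524) and *Apoc3* 35.9-fold lower (-5.16, SE 0.27, limma adjusted p = 0.00015). *Npc1l1* was 28.1-fold lower. *Rbp2* did not pass, at -1.33 (SE 0.35, limma adjusted p = 0.0182). The groups did not overlap for any of the 10, and the median was -2.74. Replicate 1 was below the mean of replicates 2 and 3 in all 10 members. Its omission was thus bound to move every difference from small intestine downward, and these values are a description. Over all settings tried for adenomas against small intestine, *Fabp1* ran from -1.58 to 0.48. For adjacent tissue against small intestine, the same omission left 0 members called, with all 10 differences below 0, from -2.69 for *Apoa4* to -0.54 for *Fabp2*, and a median of -1.23.

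**Figure D3:**
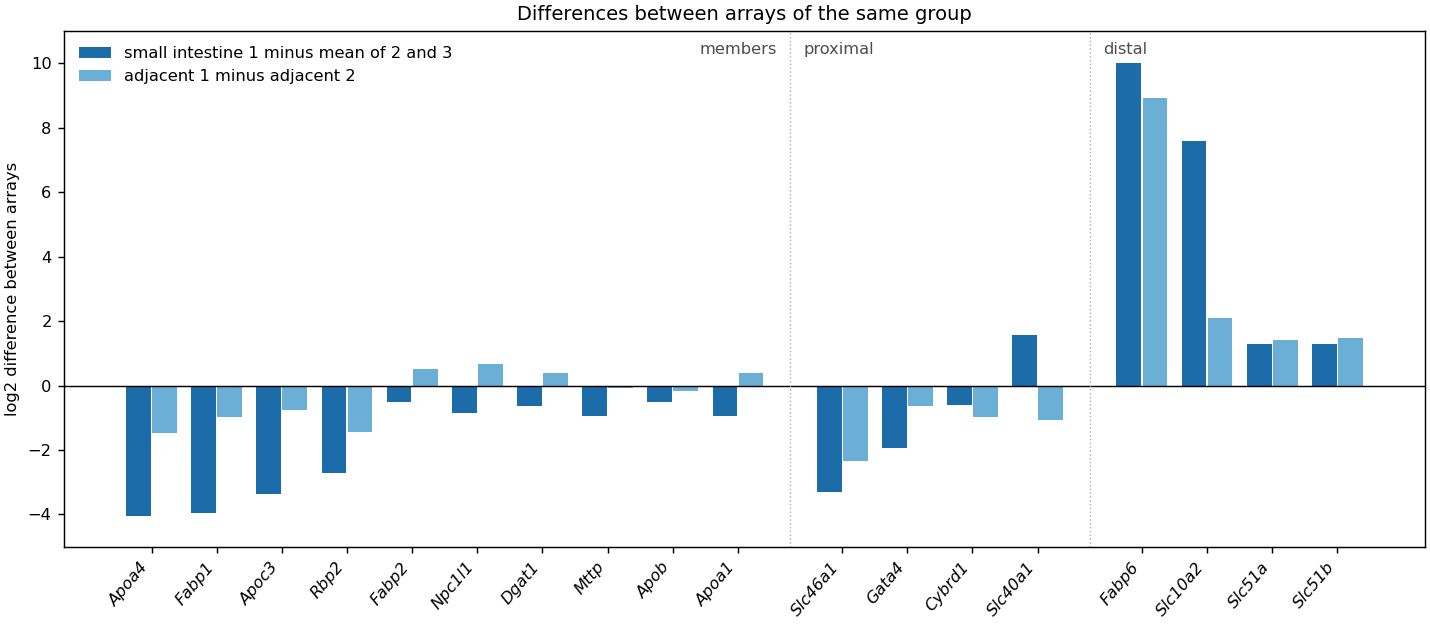
Log2 differences between arrays of the same group (vertical axis) for the 10 members, 4 proximal and 4 distal markers of the intestine; dark bars are small intestine replicate 1 minus the mean of replicates 2 and 3, light bars adjacent replicate 1 minus replicate 2. *Apoa4*, *Fabp1*, *Apoc3* and *Rbp2* have dark bars of -4.05 to -2.73 and light bars below 0, and both bars are below 0 for the proximal markers *Slc46a1*, *Gata4* and *Cybrd1*. *Slc40a1* has its dark bar at 1.56 and its light bar at -1.08, and all 4 distal markers have both bars above 0, the dark bar of *Fabp6* coming from a saturated spot.

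In colon the members gave 2 pictures, depending on the array. On replicates 1 and 2 *Apoa1* was at -6.17 and -5.99, *Apoa4* at -6.13 and -5.74, *Npc1l1* at -5.41 and -4.43 and *Apoc3* at -4.31 and -5.23. *Mttp* was at -3.01 and -3.60, *Fabp1* at -2.91 and -1.67 and *Rbp2* at -2.34 and -2.85, and the remaining genes stayed above 0, with *Dgat1* at 1.24 and 1.70, *Apob* at 2.77 and 2.34 and *Fabp2* at 6.71 and 7.50. Replicate 3 was higher than the mean of these arrays in all 10 members, by 3.09 for *Fabp2* to 12.94 for *Apoa1*. It differed from small intestine replicate 1 by -1.24 to 0.49, and its *Fabp6* level was 11.12.

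With all arrays, limma called 0 of the 10 members between colon and small intestine, beside 0.00366% of probes lower in colon (1 of 27298, with 6413 at an unadjusted p under 0.05). The differences were wide, such as -10.50 for *Apoa1* (SE 3.36, limma adjusted p = 0.143) and -1.90 for *Fabp2* (SE 0.85, 0.236), with a median of -7.24. Without replicate 3, all 10 were underexpressed in colon, beside 3.66% of probes, with a median of -10.11. *Apoa1* was at least 13000-fold lower (log2 -14.81, SE 0.35, limma adjusted p = 5.45e-05, n = 2 and 3), *Apoc3* at least 8360-fold and *Apoa4* at least 6480-fold. *Npc1l1* was at least 2130-fold lower (limma adjusted p = 0.000136). "At least" is written where a colon array did not measure the gene well above background, with the dimmest measured signal of the array as the floor. In these genes, and wherever "at least" is written below, only the fold is bounded. The log2 difference, SE and adjusted p rest in part on readings not well above background. *Fabp1* was 1320-fold lower, *Mttp* 922-fold, *Rbp2* 116-fold, *Dgat1* 36.2-fold and *Apob* 33.2-fold, with limma adjusted p of 0.00427, 0.000173, 0.00508, 0.000573 and 0.000393. *Fabp2* had the smallest difference, 7.62-fold (log2 -2.93, SE 0.33, limma adjusted p = 0.00346).

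The 8 colonocyte markers summed to 34.9 to 454 over the colon arrays and to 7.01 to 9.24 in small intestine, and the 8 enterocyte markers to 9.71 to 1520 in colon. *Hoxb13*, a gene of the distal gut, was at 7.22 and 5.61 on colon replicates 1 and 2 and -5.79 on replicate 3. Not all colonocyte genes were low on replicate 3: *Aqp4*, a water channel, was at 2.21 on it, 3.67 and 4.35 on replicates 1 and 2, and -2.03 to -0.52 in small intestine. *Slc26a3* was at 3.67, 3.92 and 2.44 and *Aqp8* at 6.44, 6.78 and -4.61 on colon replicates 1 to 3. Why replicate 3 differed from its group was not tested.

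In CT26, *Dgat1* and *Mttp* were measured well above background on all arrays, at 1.58, 1.84 and 2.03 for *Dgat1*, and 0.77, -0.19 and 0.33 for *Mttp*. *Apoa1* and *Rbp2* were measured too, at -3.15, -4.41 and -4.74 and at -1.61, -3.74 and -3.93. *Apoa4*, *Apob*, *Fabp1* and *Npc1l1* were not well above background on any CT26 array, *Apoc3* was so on 1 and *Fabp2* on 2 of 3. The line also had low general epithelial markers, summing to 30.5 to 54.8, with 2 of 8 well above background on every array.

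Against colon, 7 of the 10 members could be tested. Limma called *Fabp2* (at least 5480-fold lower, log2 -12.68, SE 0.89, limma adjusted p = 2.5e-05, n = 3 and 3) and *Apob* (at least 523-fold lower, -10.87, SE 1.13, limma adjusted p = 0.000185), beside 14.9% of probes lower and 21.5% higher. *Fabp1* missed at -7.56 (SE 1.97, limma adjusted p = 0.0138), and *Rbp2*, *Apoa1*, *Dgat1* and *Mttp* had differences of -2.05, -2.34, -0.97 and 0.53, with limma adjusted p of 0.219, 0.57, 0.451 and 0.863. Without colon replicate 3, limma called 3 of the 7 lower, beside 18.5% of probes: *Fabp2* (at least 2680-fold), *Apob* (at least 185-fold) and *Fabp1* (at least 6.46-fold, log2 -4.91, SE 0.43, limma adjusted p = 9.13e-05). It called 1 higher, beside 20.5% of probes, namely *Mttp* at 12.2-fold (log2 3.61, SE 0.38, limma adjusted p = 0.000222). *Apoa1* then stood at 1.98 (SE 0.49, limma adjusted p = 0.0117). Neither remaining colon array measured it well above background, so it was at least 1.79-fold higher in CT26. *Apob* and *Fabp1* were well above background on no CT26 array and entered the test through colon alone. Their log2 differences, SE and adjusted p thus rest on CT26 readings not well above background.

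The rest of the pathway was read from 46 further genes in 7 lists. In adenomas against small intestine 26 of the 46 were underexpressed and 2 overexpressed, with a median of -1.40, and 18 did not pass. Over all probes tested, 10.9% were lower and 10.9% higher. Of the uptake and activation genes 3 of 6 were lower, most of all *Slc27a2*, a fatty acid transport protein, at -2.62 (SE 0.47, limma adjusted p = 0.00386). Of the glyceride synthesis genes 4 of 6 were lower, led by *Gpat3*, which makes the first acyl ester of glycerol, at -2.83 (SE 0.22, limma adjusted p = 0.000184). Of the sterol genes 3 of 4 were lower: *Soat2*, which esterifies cholesterol, at -3.49 (SE 0.37, limma adjusted p = 0.000494), and *Abcg5* and *Abcg8*, the pair that pumps sterols back to the lumen. *Abcg5* measured 6.01, 7.11 and 7.26 in small intestine, 5.76 and 6.37 in adjacent tissue, and 3.23, 3.81 and 4.01 in adenomas.

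Of 10 genes of chylomicron assembly and lipoproteins 4 were lower, led by *Cideb*, a protein of lipoprotein lipidation, at -2.32 (SE 0.28, limma adjusted p = 0.000784), and 1 was higher, *Apoe*, the ligand for clearance of remnants, at 1.23 (SE 0.22, limma adjusted p = 0.00393). *Apoa5*, the neighbour of *Apoa1*, *Apoc3* and *Apoa4* on chromosome 9, was too dim in both groups to be tested. Those 3 members lie close together: their probes start within 11740 bases of each other in mm9, the build of the array annotation. Of 5 lipid droplet genes 2 were lower, with *Plin3*, a droplet coat protein, at -1.71 (limma adjusted p = 0.0015). Of 11 transcription factors of enterocyte and lipid gene programmes 7 were lower and 0 higher, led by *Nr1h3*, a receptor for oxysterols, at -2.57 (SE 0.20, limma adjusted p = 0.000165).

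The retinoid genes went in both directions. *Bco1*, which splits beta-carotene, was at -1.57, 2.71 and 3.95 in small intestine and between -5.14 and -4.22 in adenomas, at least 70.4-fold lower (limma adjusted p = 0.00694) and, without small intestine replicate 1, at least 218-fold lower (limma adjusted p = 0.000167). It was at -4.55 and -4.34 in adjacent tissue. *Rbp4*, the retinol carrier of plasma, was at 0.36, 1.50 and 0.98 in small intestine, 0.08 and -0.46 in adjacent tissue and 2.87, 3.18 and 3.33 in adenomas, higher by 2.18 (limma adjusted p = 0.00142). Of 4 retinoid genes 3 were lower and 1 higher, while *Rbp2*, as above, was at -0.42 and did not pass.

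Beside 1.71% of probes lower and 2.27% higher against adjacent tissue, 3 of the 46 were underexpressed and 1 overexpressed in adenomas. They were *Slc27a4*, the main fatty acid transport protein of enterocytes (log2 -1.20, limma adjusted p = 0.00873), *Abcg5* (-2.38, 0.00836) and *Abcg8* (-2.46, 0.00923), and *Rbp4* (3.32, 0.0027). Between adjacent tissue and small intestine limma called 0 of the 46. Between colon and small intestine it called 0 with all arrays and, without colon replicate 3, 21 lower, beside 3.66% of probes. In CT26 against colon 20 were lower and 1 higher, *Scarb1*, a lipoprotein receptor, at 3.32 (limma adjusted p = 0.00984). Over all probes tested in that comparison, 14.9% were lower and 21.5% higher. Without colon replicate 3, 25 of the 46 were lower and 4 higher, beside 18.5% and 20.5% of probes.

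**Figure D4:**
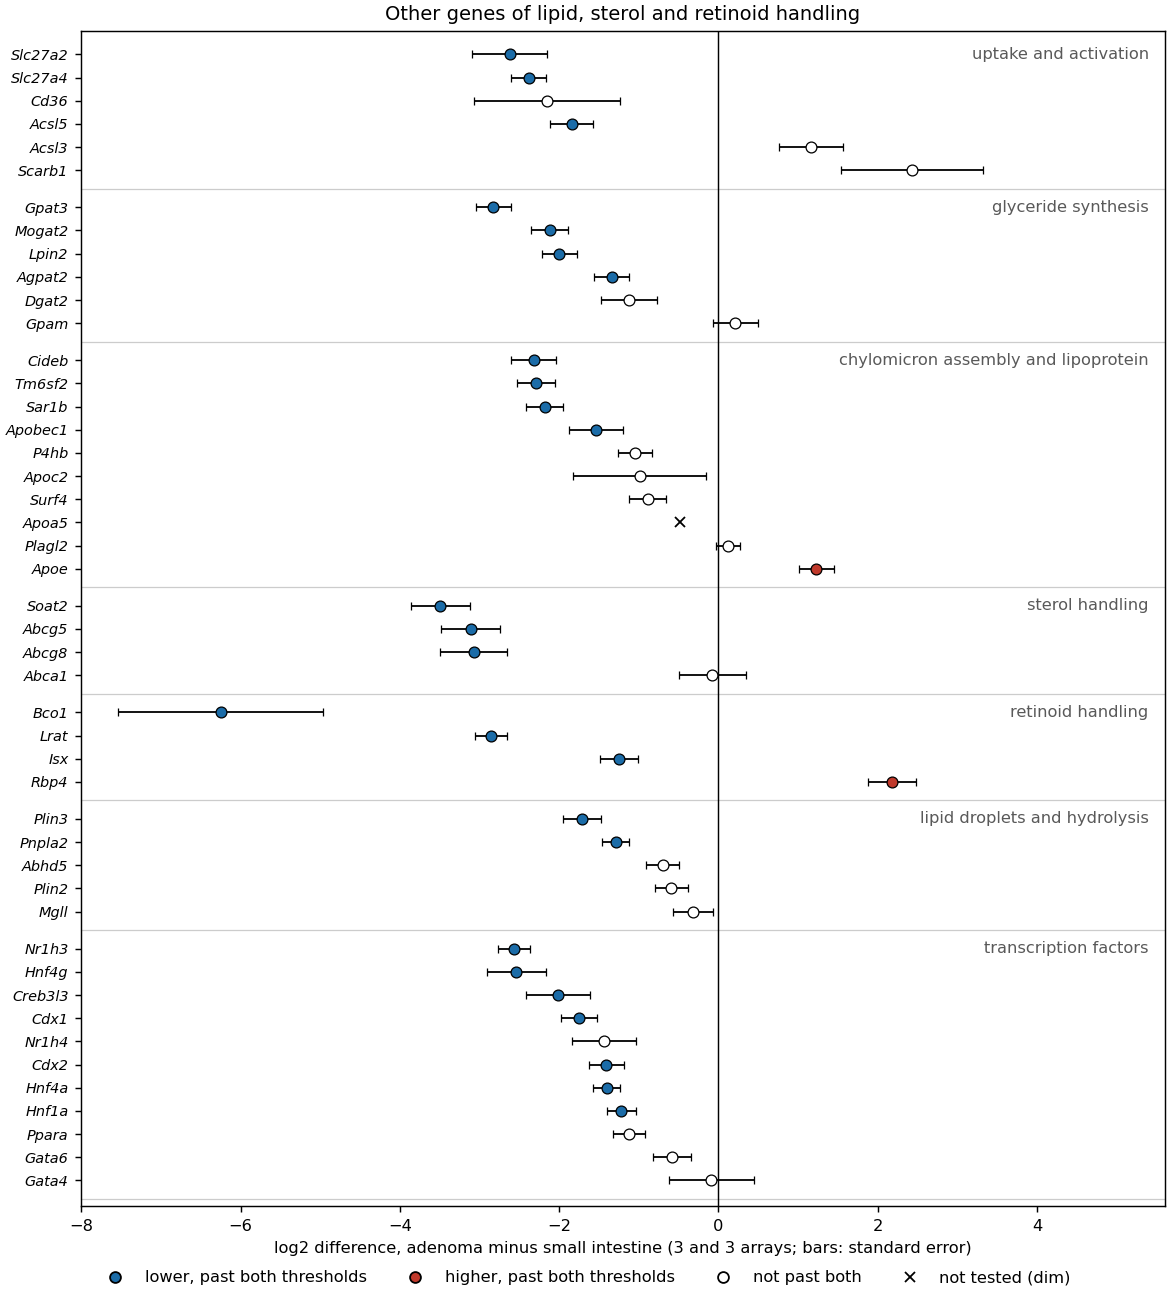
Log2 difference of 46 further genes between adenoma and small intestine (horizontal axis, bars are standard errors from limma, 3 arrays a group), grouped by step of the pathway. Of these, 26 pass as lower, and *Rbp4* and *Apoe* pass as higher.

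The members' profiles over the 14 arrays were compared as a description. The correlation of each member with the mean standardised profile of all 10 was 0.847 for *Fabp2* to 0.991 for *Apoc3*. Each member is part of that mean, so some correlation was given in advance. Of 23757 genes ranked by correlation with that mean, the 5 highest outside the list were *Treh* (0.995), the trehalose enzyme of the brush border, *Smlr1* (0.9937), *Lct* (0.9916), the lactase of the brush border, *Defa29* (0.9901), a Paneth cell defensin, and *Abcc2* (0.9896), an organic anion pump. The arrays share group, slide and processing, and no test was made.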

How the data were processed

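RNA of 14 samples was measured on 14 one-color arrays (SurePrint G3 Mouse 8x60K) lying on 2 slides, and groups were taken from the sample labels. The authors deposited scanner output from Feature Extraction 10.7.3.1, in which background had been removed from the intensity of each spot and no scaling between arrays applied. The authors also deposited a table of normalized log2 values, by a method not stated in the sources used here. Its fold changes, p-values and adjusted p-values between groups were not used, nor were 28 per-sample columns of flags and detection calls.

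Control spots and outlier spots (103 to 206 per array) were left out, the 75th percentile of log2 signal was subtracted on each array, and the 62976 spots gave 55681 probes. Of these, 26582 were named through a RefSeq accession and 29099 kept the name in the files. Probe positions in the files are in mm9. No genome of that build was used, so exon and UTR positions of probes are not given.

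Each pair of groups was fitted with limma 3.58.1 in R 4.3.3 (lmFit, eBayes) on its own arrays, with Benjamini-Hochberg adjustment over all probes tested. The fit was tested on simulated data. The genes named were the 10 members, in each list of the pathway the called gene that rose most and the one that fell most in adenomas against small intestine, every pathway gene called between adenoma and adjacent tissue, the 5 genes most like the members, and the cell type markers. *Scarb1* was named after its value was seen, and 1 gene of the pathway lists is not reported here. The members and lists were chosen with earlier results of these data known. Alternatives were the authors' table, normexp (offset 50), quantile normalization, every probe tested, an adjusted p of 0.05, all 5 groups in 1 fit, slide or replicate number as a block, the title number as a block (chosen after seeing the data), and the omission of each array. Precision is limited by the few arrays in a group.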

Additional observations from a re-analysis of the deposited data

How the results depend on the processing

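With adenomas against small intestine, 7 members and 28 other pathway genes were called, and a fit of all 5 groups called 0 and 12. Against adjacent tissue the 2 members and 4 pathway genes became 6 and 14 at an adjusted p of 0.05, 4 and 8 in the authors' table, 5 and 9 with normexp, 1 and 2 with quantile normalization, 0 and 0 with every probe tested, 0 and 0 in a fit of all groups, 0 and 1 with slide as a block, and, under the replicate block, 0 and 0, by either numbering. Omitting 1 array there left 0 to 1 members and 0 to 2 pathway genes; a lone adjacent array is then assumed to vary like the adenoma arrays. For colon against small intestine, 0 members and 0 pathway genes became 1 and 5 in a fit of all groups, and 0 to 10 and 0 to 21 when 1 array was omitted, the highest without colon replicate 3. For CT26 against colon, omissions gave 2 to 4 members. In adjacent tissue against small intestine every setting called 0 members. The share of all probes called is not given for most settings here and below, so these counts cannot be set against it. The causes were not tested.

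The replicate numbers were not used as pairs: arrays with the same number correlated in their deviations from the group means by 0.0212, 0.116 and -0.0946 for adenoma and small intestine, by -0.00997 and -0.0356 for adenoma and adjacent tissue, and by 0.291 and 0.141 for adjacent tissue and small intestine. These numbers are those of the source names. The sample titles number the adjacent arrays 2 and 3, and with title numbers, an alternative chosen after seeing the data, the correlations were 0.0356 and 0.0257 for adenoma and adjacent tissue and -0.141 and 0.207 for adjacent tissue and small intestine, and the block called 0 members and 0 pathway genes in both. With the source-name block, 7 members and 23 pathway genes were called for adenomas against small intestine, 0 and 0 for adjacent tissue or colon against small intestine, and 2 and 22 for CT26 against colon.

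Of 667 values of single genes under other settings, 580 kept direction and side of the threshold, 37 lost the call, 27 gained it and 23 changed sign. Many of these values belong to comparisons whose main fit called few or no members, where keeping the side mostly means staying uncalled. For adenomas against small intestine, *Fabp1* was 0.26 in the authors' table and 0.23 with quantile normalization, and over omissions of 1 array it ran from -1.58 without small intestine replicate 1 to 0.32 and 0.48 without replicates 2 and 3. *Rbp2* ran from -1.33 to 0.21 over the same omissions. Against adjacent tissue, omissions moved *Apoa4* from -1.36 without adjacent replicate 1 to 0.11 without replicate 2, and *Rbp2* from -0.93 to 0.50, with 0.02 without adenoma replicate 1 and 0.02 with the title-number block. For adjacent tissue against small intestine, *Fabp1* was -0.75 with the title-number block and ran from -0.75 without small intestine replicate 1 to 1.31 without replicate 3. *Rbp2* was 0.26 in the authors' table, 0.21 with quantile normalization and 0.43 with the replicate block, and it ran from -1.11 without small intestine replicate 1 to 0.07 and 0.43 without replicates 2 and 3 and 0.51 without adjacent replicate 1. For CT26 against colon, *Apoa1* ran from -4.54 to 1.98 and *Dgat1* from -1.74 to 0.35, the highest without colon replicate 3. *Mttp* was -0.07 in the authors' table and -0.01 with normexp, and ran from -1.16 and -0.86 without colon replicates 2 and 1 to 3.61 without replicate 3.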
